A study of Mus musculus with 16 samples.

Results

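The S100 genes outside S100a8, S100a9 and S100a10 were followed in mouse dorsal skin. They were chosen by symbol, with earlier results of these data known. They comprised S100a1, S100a3, S100a4, S100a5, S100a6, S100a7a, S100a11, S100a13, S100a14 and S100a16, that is 10 of the 23282 genes in each count table. Of these, 9 had enough counts to be tested among 14854 genes, and S100a5 did not. The study placed wild-type male C57BL/6N mice, purchased at 3 weeks of age and adapted for 1 week, in 4 groups, with 4 mice and 1 library per mouse sequenced in each. The Cont group ate normal chow. For 12 weeks after adaptation the LowAhR group ate a diet low in ligands of the aryl hydrocarbon receptor (AhR), a transcription factor activated by dietary and environmental compounds. Mice on this diet were also given paper bedding free of AhR ligands. The LowAhR+AD group ate the same diet for 12 weeks. After the first 2 weeks it was also painted on the back, 2 times a week, with 1% 2,4-dinitrochlorobenzene (DNCB), a contact sensitizer used to model atopic dermatitis (AD). The LowAhR+AD+BJ group received the diet and DNCB in the same way. From the start of DNCB it was also given, by daily gavage, 1 g/kg of Bojungikgi-tang (BJIKT), a herbal extract. All groups but Cont shared the diet and its bedding, so the effects of diet and bedding cannot be told apart. The DNCB was mixed in acetone and olive oil, and BJIKT was given in water. No painting with the solvent alone and no gavage without BJIKT is described for the other groups. The effects of DNCB and its solvent, and those of BJIKT and gavage, therefore cannot be told apart either. DNCB was not given on normal chow and BJIKT was not given without DNCB, so the effect of DNCB on a normal diet and that of BJIKT alone were not measured. The libraries came from whole skin, so that fewer cells of a type and less RNA per cell cannot be told apart.

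S100 proteins are small calcium sensors with paired EF-hand motifs that mostly act as dimers. On binding calcium they expose a surface that docks target proteins such as annexins, cytoskeletal motors and enzymes, and several are also released and bind cell-surface receptors. Many of their genes lie in the epidermal differentiation complex, next to the genes of cornified envelope proteins, and several are expressed by keratinocytes. S100a8 and S100a9, the subunits of calprotectin, are the members best known from inflamed epidermis, whereas the other members serve muscle, hair, fibroblasts and epithelium.

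In the mouse genome (build GRCm38, gene positions from RefSeq GRCm38.p6) 9 of the 10 genes lay within 147097 bases of chromosome 3, from chr3:90511034 to chr3:90658130. S100a1 (chr3:90511034-90514330) was on the minus strand, and the others followed on the plus strand. They ran from S100a13 (chr3:90514233-90524581), S100a14 (chr3:90526849-90528837) and S100a16 (chr3:90537254-90543151) through S100a3 (chr3:90560356-90602706), S100a4 (chr3:90603770-90606045) and S100a5 (chr3:90606480-90611784) to S100a6 (chr3:90612894-90614414) and S100a7a (chr3:90651925-90658130). S100a11 (chr3:93520496-93526288) lay 2862366 bases beyond S100a7a. S100a1 and S100a13 stood head to head. The last exons of S100a3 and of S100a4 overlapped the annotated gene Gm42674 on the same strand, so how reads there were shared between genes is uncertain for both.

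The sequences before the starts of S100a4, S100a6, S100a11 and S100a16 are shown as examples. In LowAhR+AD against Cont S100a6, S100a11 and S100a16 were higher, and S100a4, at a log2 fold change of -0.31, was not called. S100a1, S100a3, S100a7a and S100a14 were called higher there too, and no sequence is shown for them. Each is the 250 bases before the start of the gene's first promoter in RefSeq (GRCm38.p6), plus strand, 5′ to 3′, with a TATAAA or TGANTCA match in capitals. They cover chr3:90603520-90603769 for S100a4, chr3:90612644-90612893 for S100a6, chr3:93520246-93520495 for S100a11 and chr3:90537004-90537253 for S100a16.
S100a4: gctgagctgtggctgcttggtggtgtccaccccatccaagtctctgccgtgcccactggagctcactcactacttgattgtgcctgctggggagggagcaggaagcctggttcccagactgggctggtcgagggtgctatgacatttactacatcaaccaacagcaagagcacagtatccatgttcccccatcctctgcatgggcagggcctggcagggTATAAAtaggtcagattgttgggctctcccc
S100a6: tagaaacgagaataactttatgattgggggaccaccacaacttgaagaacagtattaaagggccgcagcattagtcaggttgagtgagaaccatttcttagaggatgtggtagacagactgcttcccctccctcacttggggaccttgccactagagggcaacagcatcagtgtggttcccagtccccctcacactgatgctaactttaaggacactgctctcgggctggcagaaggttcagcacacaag
S100a11: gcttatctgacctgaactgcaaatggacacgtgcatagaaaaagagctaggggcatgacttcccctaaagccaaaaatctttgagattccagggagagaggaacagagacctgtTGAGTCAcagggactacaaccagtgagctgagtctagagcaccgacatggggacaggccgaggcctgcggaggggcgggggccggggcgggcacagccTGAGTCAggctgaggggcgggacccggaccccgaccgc
S100a16: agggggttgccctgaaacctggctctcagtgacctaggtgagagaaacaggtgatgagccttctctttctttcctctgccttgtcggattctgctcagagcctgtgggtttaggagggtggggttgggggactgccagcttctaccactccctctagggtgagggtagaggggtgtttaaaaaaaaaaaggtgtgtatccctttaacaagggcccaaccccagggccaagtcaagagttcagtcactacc

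Promoters were found for 9 of the 10 members (all but S100a14), 13 in all, and 3 short motifs were searched in them on both strands. The letters TATAAA, the core of a TATA box, stood 31 bases before the start of S100a4 and 52 bases before 1 of the 4 starts of S100a3, and 13% of 27025 mouse promoters of this length held them. The letters TGANTCA, bound by AP-1 factors, stood 136 and 38 bases before the start of S100a11 and 192 bases before the second start of S100a16, against 6.87% of all promoters. The AhR core GCGTG stood before S100a13, 190 bases from the start, and before 1 start of S100a3, 162 bases from it, against 28.2% of all promoters. Annotated exons of any gene covered 192 of the 250 bases of the S100a13 window and all 250 of that S100a3 window. The shares over all promoters take 1 promoter per gene, whereas S100a3 was searched at 4 starts. The promoter of S100a6 held none of the 3 motifs. These matches are descriptions of the letters and no measure of binding.

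The 16 libraries held 7080508 to 13467477 counts, and all 8 libraries with DNCB were deeper than the 8 without. Together the 10 genes took 0.270% to 0.308% of the counts in Cont, 0.387% to 0.511% in LowAhR, 0.529% to 0.807% in LowAhR+AD and 0.563% to 0.805% in LowAhR+AD+BJ. LowAhR+AD replicate 1 stood apart from the rest: 37.5% of the genes expected at 20 to 40 counts had none in it, against at most 13.4% in any other library. Keratins of the epidermis (Krt5, Krt14, Krt1 and Krt10) were present in every library, but not at a constant level. Their summed level was 4026 to 5165 CPM in Cont and 4371 to 5557 CPM in LowAhR. It was 5903 to 12315 CPM in LowAhR+AD and 5391 to 9358 CPM in LowAhR+AD+BJ. Levels are given as CPM, the counts of a gene scaled to a common library size by the trimmed mean of M-values (TMM). P-values of the main test set a difference between groups against the spread of mice within groups, estimated over all 16 libraries.

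**Figure D1:**
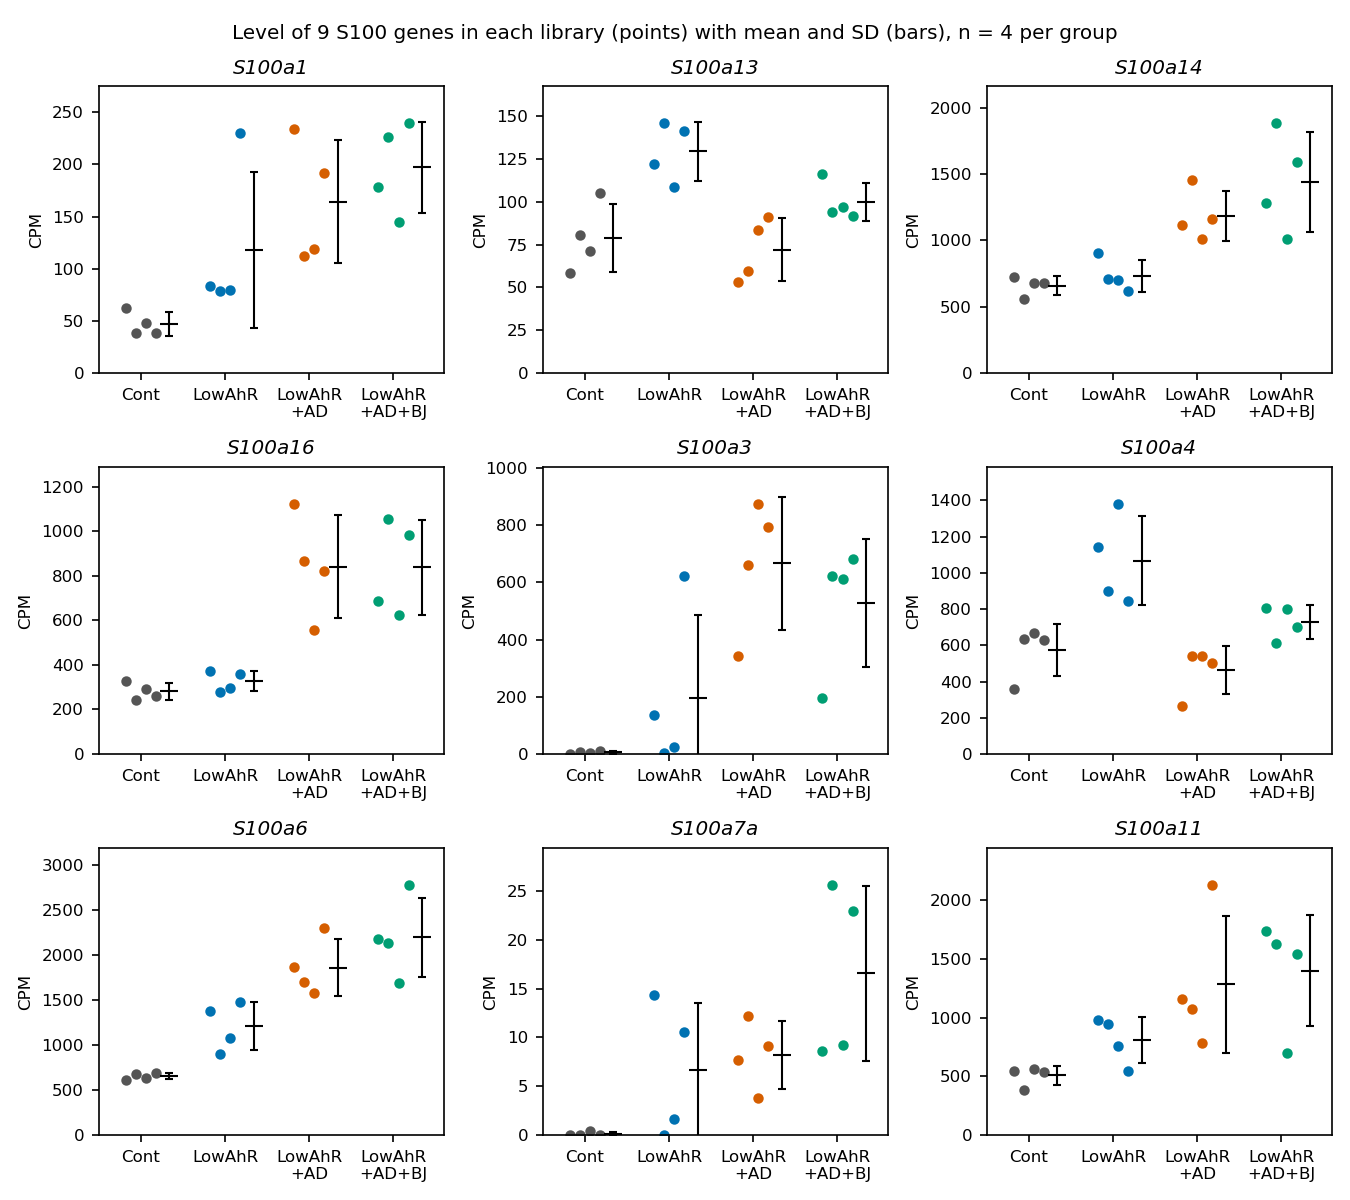
Level of the 9 tested S100 genes in each library, in CPM on a linear axis from 0, with 1 panel per gene, points for the 4 libraries of each group and bars for the mean and SD (cut at 0 for S100a3 and S100a7a). S100a16 separated the groups with DNCB from those without, with no library of the DNCB groups under 555 CPM and none of the others over 374 CPM, whereas S100a4 and S100a13 were highest in LowAhR.

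Compared to Cont, the LowAhR+AD group had higher expression of 7 of the 9 genes, namely S100a1, S100a3, S100a6, S100a7a, S100a11, S100a14 and S100a16 (edgeR quasi-likelihood test, Benjamini-Hochberg adjusted over all tested genes), against 12.3% of all genes called higher. In each of the 7 genes the 4 LowAhR+AD libraries lay above the 4 Cont libraries, as for 12.9% of all genes. S100a4 and S100a13 were not called, with log2 fold changes of -0.31 and -0.13. The median over the 9 genes was 1.51, against 0.045 over all tested genes. The 7 calls remained whichever library was left out.

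With DNCB painting on the low AhR ligand diet the family split. Compared to LowAhR, the LowAhR+AD group had higher S100a16 and lower S100a4 and S100a13, that is 3 of 9 genes called against 12.6% of all genes (6.42% higher and 6.21% lower). S100a14 and S100a6 were also higher in all 4 libraries of LowAhR+AD than in any of LowAhR, as were 8.92% of all genes, but with adjusted p-values of 0.0539 and 0.0795 (edgeR). S100a4 and S100a13 were lower in all 4 libraries, as were 9.85% of all genes. DESeq2 called S100a14 and S100a6 too, 5 members in all, and 2673 of all 14854 genes. With limma voom it was 6 members and 2092 genes, and the main fit called 1876 genes. Without LowAhR replicate 4 the edgeR test called 5 members, S100a1 and S100a3 among them, and 2015 of 15260 genes.

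The diet without DNCB, given with its bedding, was the step with the least certain calls. In LowAhR against Cont all 9 log2 fold changes were above 0, with a median of 0.88 against 0.026 over all genes. The edgeR test called none of the 9 and 0% of all 14854 genes, while 6 of the 9 and 13.7% of all genes had an unadjusted p under 0.05. DESeq2 called 5 of the 9 (S100a1, S100a3, S100a4, S100a6 and S100a7a) and 491 genes in all, and limma voom called none of either. Leaving out LowAhR+AD replicate 1, a library outside this comparison that shares in the estimate of the spread, gave the same number of members, 5, with 475 genes called in all. Without LowAhR replicate 2 it was 2 members and 159 genes. S100a1, S100a4, S100a6 and S100a13 were higher in all 4 LowAhR libraries than in any Cont library, as were 5.68% of all genes.

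Compared to LowAhR, the LowAhR+AD+BJ group had higher S100a14, S100a16 and S100a6, 3 of 9 genes against 3.64% of all genes called higher. In these 3 genes the groups did not overlap, as for 8.91% of all genes in this direction, and S100a4 was lower in all 4 libraries, as were 8.19%. Leaving out 1 of 4 libraries (LowAhR replicates 2 or 3, LowAhR+AD+BJ replicates 2 or 4) left 1 member called, S100a16. Between the 2 DNCB groups no member and 0% of all genes passed the edgeR test. At an unadjusted p under 0.05 stood 2 of 9 members, S100a4 and S100a13, and 9.46% of all genes. DESeq2 called 17 genes and none of the members there, and limma voom called 0. The LowAhR libraries enter 3 of these comparisons and the LowAhR+AD libraries also enter 3, so the changes share samples.

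**Figure D2:**
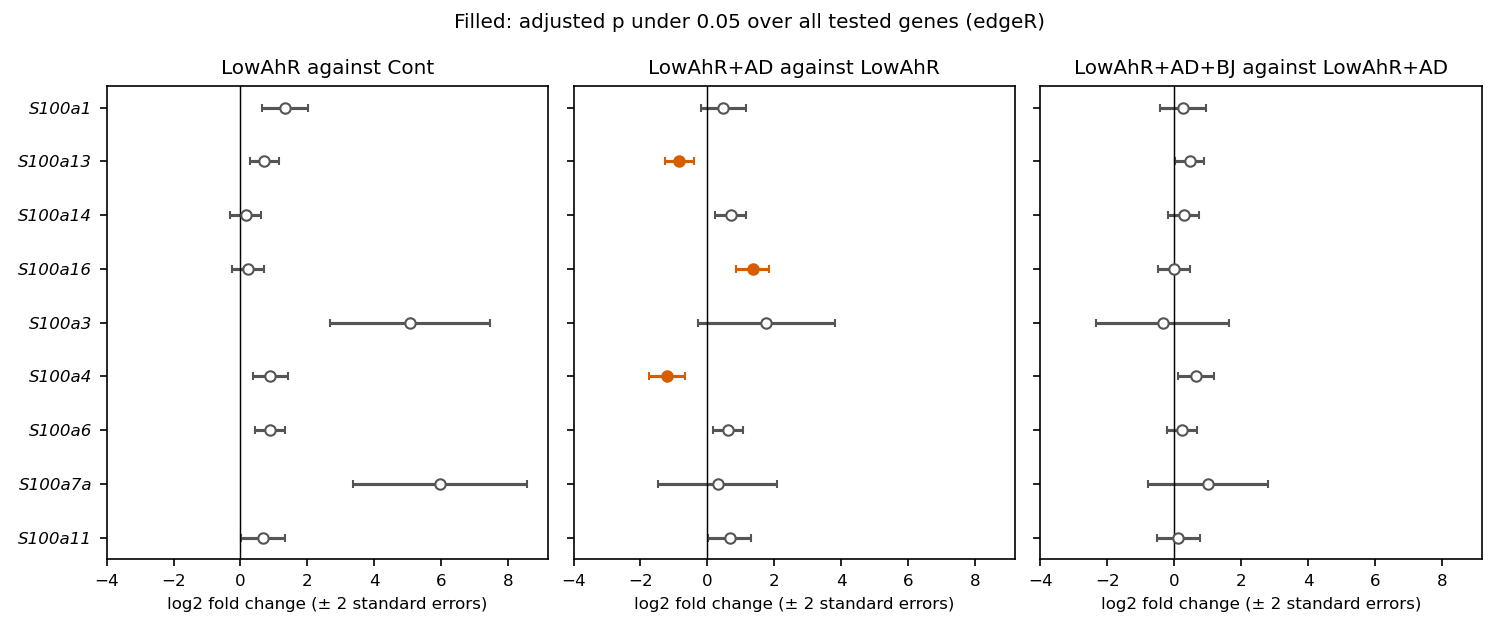
Log2 fold change of the 9 tested S100 genes in 3 successive comparisons, with bars of 2 standard errors on each side (edgeR) and filled points where the adjusted p over all genes was under 0.05. The filled points are S100a16, at 1.36, and S100a4 and S100a13, at -1.21 and -0.84, all in LowAhR+AD against LowAhR.

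S100a16, a widely expressed member found in keratinocytes, and S100a14, an epithelial member that pairs with it, were higher with DNCB and changed little between the 2 groups without it. In LowAhR against Cont their log2 fold changes were 0.22 and 0.15, with intervals of 2 standard errors from -0.27 to 0.70 and from -0.30 to 0.61. S100a16 measured 329, 242, 293 and 261 CPM in Cont replicates 1 to 4 and 374, 280, 295 and 359 CPM in LowAhR. It measured 1120, 864, 555 and 821 CPM in LowAhR+AD, and 686, 1052, 626 and 985 CPM in LowAhR+AD+BJ. The Cont and LowAhR libraries overlapped, the DNCB groups overlapped with each other, and the gap between the pairs of groups held no library. The rise from LowAhR (327 ± 46.2 CPM, SD, n = 4) to LowAhR+AD (840 ± 231 CPM, SD, n = 4) was 1.36 ± 0.25 on the log2 scale (SE, adjusted p = 0.00230, edgeR), and it was called in all 16 fits that left out 1 library and all 9 other alternatives. Compared to LowAhR, LowAhR+AD+BJ was higher by nearly the same amount (log2 fold change 1.36, adjusted p = 0.00438, edgeR). The 2 DNCB groups differed by -0.0045, with an interval of 2 standard errors from -0.49 to 0.48.

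S100a14 measured 726, 561, 676 and 675 CPM in Cont, 906, 709, 697 and 621 CPM in LowAhR, 1117, 1454, 1012 and 1159 CPM in LowAhR+AD, and 1282, 1881, 1007 and 1587 CPM in LowAhR+AD+BJ. Again Cont and LowAhR overlapped, and every library with DNCB exceeded every library without. The log2 fold change of LowAhR+AD was 0.85 against Cont (adjusted p = 0.0133, edgeR) and 0.69 ± 0.23 against LowAhR (SE, adjusted p = 0.0539, edgeR). For LowAhR+AD+BJ against LowAhR it was 0.97 (adjusted p = 0.0158, edgeR), and this call was lost without LowAhR replicate 2, LowAhR replicate 3, LowAhR+AD+BJ replicate 2 or LowAhR+AD+BJ replicate 4, with adjusted p-values of 0.0521 to 0.0737 (edgeR). Markers of activated keratinocytes moved with both genes: Krt6a, Krt6b, Krt16 and Krt17 all rose in LowAhR+AD against LowAhR, and their summed level went from 526–1735 to 11012–32999 CPM. The 5 cell cycle genes (Mki67, Top2a, Ccnb1, Cdk1 and Birc5) all rose too, from 165–224 to 358–481 CPM summed. Of the 4 epidermal keratin genes, 3 had log2 fold changes above 0 in this comparison. Krt5 and Krt14 were called higher, as were 6.42% of all genes, and the list went from 4371–5557 to 5903–12315 CPM summed. The part of all these genes in the change of S100a14 and S100a16 was not tested.

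S100a6 and S100a11 bind annexins. S100a6, also called calcyclin, further binds the ubiquitin ligase adaptors Cacybp and Sugt1. It measured 615, 678, 633 and 689 CPM in Cont, 1379, 904, 1072 and 1474 CPM in LowAhR, 1860, 1703, 1572 and 2296 CPM in LowAhR+AD, and 2181, 2127, 1693 and 2770.5 CPM in LowAhR+AD+BJ. Cont, LowAhR and LowAhR+AD formed 3 steps without overlap, and the last 2 groups overlapped. The log2 fold change was 0.88 ± 0.23 for LowAhR against Cont (SE, adjusted p = 0.0891, edgeR) and 0.62 ± 0.23 for LowAhR+AD against LowAhR (SE, adjusted p = 0.0795, edgeR). Neither step passed in this fit, and both together did, at 1.51 ± 0.23 for LowAhR+AD against Cont (SE, adjusted p = 3.56e-04, edgeR), a 2.84-fold difference. In LowAhR+AD+BJ it exceeded LowAhR by 0.86 (adjusted p = 0.0308, edgeR), a call that was lost in 6 of the 16 fits that each left out 1 library.

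S100a11, which is linked to growth control of keratinocytes, measured 547, 385, 560 and 538 CPM in Cont and 981, 950, 758 and 549 CPM in LowAhR. It measured 1163, 1073, 781 and 2127 CPM in LowAhR+AD and 1735, 1626, 700 and 1544 CPM in LowAhR+AD+BJ. LowAhR overlapped with every other group, and no library with DNCB reached down to the Cont range. LowAhR+AD exceeded Cont by 1.34 ± 0.33 on the log2 scale (SE, adjusted p = 0.00761, edgeR), and neither step alone passed, each at 0.67 (adjusted p = 0.373 and 0.187, edgeR). LowAhR+AD replicate 4 was the highest of all 16 libraries and LowAhR+AD+BJ replicate 3 the lowest of the 8 with DNCB.

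S100a1, known as a regulator of calcium handling in heart and skeletal muscle, measured 62.4, 38.8, 48.4 and 38.0 CPM in Cont and 83.2, 78.7, 79.4 and 230.3 CPM in LowAhR. It measured 234, 112, 119 and 192 CPM in LowAhR+AD, and 178, 226, 145 and 239 CPM in LowAhR+AD+BJ. LowAhR replicate 4 lay far above the other 3 libraries of its group and inside the range of the DNCB groups. In LowAhR against Cont the log2 fold change was 1.33 (adjusted p = 0.0914, edgeR), or 0.78 without that library. Compared to Cont, LowAhR+AD was higher by 1.81 ± 0.35 (log2, SE, adjusted p = 0.00169, edgeR), a 3.51-fold difference. Compared to LowAhR it was higher by 0.48 (adjusted p = 0.382, edgeR), or by 1.03 without LowAhR replicate 4 (adjusted p = 0.0231, edgeR). Skeletal muscle markers differed in the same direction as S100a1 in the first step and in the opposite direction in the second. In LowAhR against Cont all 8 had log2 fold changes above 0 (median 0.73), none called, and their summed level was highest of all libraries in LowAhR replicate 4 (22442 CPM), where S100a1 was also high, and nearly as high in LowAhR replicate 3 (21757 CPM), where S100a1 was at 79.4 CPM. In LowAhR+AD against LowAhR all 8 fell, from 8182–22442 to 468–3824 CPM summed, while S100a1 had a log2 fold change of 0.48. Their part in the values of S100a1 was not tested.

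S100a3 is a hair cuticle protein whose arginines are citrullinated by the enzyme Padi3. It had no count in Cont replicate 1, which allows up to 0.385 CPM (3 counts), and 8.79, 4.44 and 10.3 CPM in Cont replicates 2 to 4. LowAhR was spread most widely, at 136, 2.69, 24.6 and 622 CPM. LowAhR+AD had 343, 660, 873 and 793 CPM, and LowAhR+AD+BJ had 194, 621, 612 and 682 CPM. Every LowAhR+AD library was above every Cont library, while LowAhR reached from the Cont range into that of the DNCB groups. In LowAhR against Cont the log2 fold change was 5.06 ± 1.20 (SE, adjusted p = 0.0806, edgeR), or 3.21 without LowAhR replicate 4. LowAhR+AD exceeded Cont by 6.82 ± 1.29 (log2, SE, adjusted p = 0.00144, edgeR), a call that limma voom did not make (adjusted p = 0.0612). Against LowAhR the difference was 1.76 ± 1.02 (SE, adjusted p = 0.273, edgeR), which became 3.62 without LowAhR replicate 4 (adjusted p = 0.0312, edgeR) and 3.66 in limma voom (adjusted p = 0.0191).

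Hair genes were high in the same groups as S100a3, and in LowAhR in the same libraries. The summed level of 11 hair shaft and cuticle genes was 68.0 to 233 CPM in Cont. In LowAhR it was 1504, 80.1, 352 and 5023 CPM in replicates 1 to 4, the same order of libraries as for S100a3. It was 2236 to 16259 CPM in LowAhR+AD and 2374 to 8993 CPM in LowAhR+AD+BJ, lowest in replicate 1 of both groups, where S100a3 was also lowest. Among replicates 2 to 4 of these groups the order was the reverse of that of S100a3: the hair genes summed to 16259, 8495 and 10875 CPM in LowAhR+AD and to 7761, 8993 and 6234 CPM in LowAhR+AD+BJ. Of the 11 genes, 10 were called higher in LowAhR+AD than in Cont, against 12.3% of all genes. Compared to LowAhR 2 were called higher (Krt32 and Selenbp1), against 6.42% of all genes, and Krt83 had no count in Cont. The 6 inner root sheath genes behaved alike, with 91.9 to 7898 CPM in LowAhR and 5461 to 19491 CPM in LowAhR+AD. Their part in the change of S100a3 was not tested. The genes closest to S100a3 in log2 CPM over the 16 libraries were Krtap11-1, Krt27 and Krt71, all expressed in the growing hair, with Pearson's r of 0.987, 0.987 and 0.983. With the group means removed they were Crym, Krt35 and Krt27, with r of 0.967, 0.966 and 0.966. These correlations describe libraries that share groups and depth and carry no test.

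**Figure D3:**
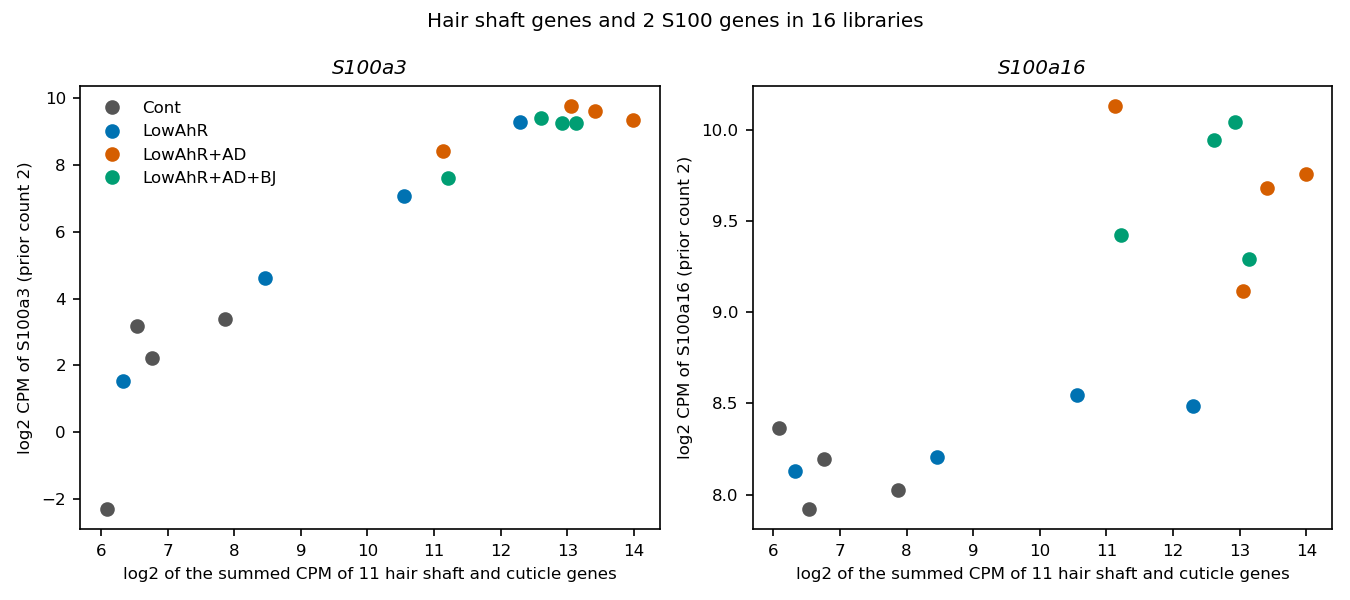
Log2 CPM of S100a3 (left) and S100a16 (right) against the log2 summed CPM of 11 hair shaft and cuticle genes, 1 point per library and 1 colour per group. The LowAhR points spread along the S100a3 axis in the order of the hair genes, from 2.69 to 622 CPM, while S100a16 stayed between 280 and 374 CPM in the same 4 libraries.

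S100a7a, a member of the psoriasin branch with antimicrobial relatives, had few counts. Cont held 3 counts in all, in replicate 3 (0.370 CPM). LowAhR measured 14.3, 0, 1.69 and 10.5 CPM, LowAhR+AD 7.71, 12.2, 3.81 and 9.16 CPM, and LowAhR+AD+BJ 8.58, 25.6, 9.18 and 22.9 CPM. All DNCB libraries exceeded all Cont libraries, and LowAhR overlapped with every group. The ratio of pooled CPM to Cont was 87.0 in LowAhR+AD, with a counting interval of 29.6 to 424 (95%, exact), and 70.6 in LowAhR, with an interval of 23.8 to 345. Such intervals cover counting error only. The first difference passed the test across all genes (adjusted p = 0.00252, edgeR) and the second did not (adjusted p = 0.0659, edgeR). LowAhR+AD against LowAhR gave a log2 fold change of 0.31 (adjusted p = 0.861, edgeR), and -0.10 without LowAhR replicate 2. As for S100a3, LowAhR replicate 2 was the lowest of its group, and the genes of closest pattern included the hair genes Krtap1-3 (r = 0.964) and Krt26 (r = 0.947).

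S100a4, also known as fibroblast-specific protein 1, binds nonmuscle myosin IIA (Myh9) and liprin beta 1 (Ppfibp1), and marks fibroblasts and several leukocytes. It measured 357, 634, 667 and 632 CPM in Cont, 1145, 900, 1377 and 845 CPM in LowAhR, 265, 541, 543 and 501 CPM in LowAhR+AD, and 806, 610, 800 and 699 CPM in LowAhR+AD+BJ. All LowAhR libraries were above those of each other group, and all LowAhR+AD+BJ libraries were above those of LowAhR+AD. From LowAhR (1067 ± 244 CPM, SD, n = 4) to LowAhR+AD (462 ± 133 CPM, SD, n = 4) it fell by 1.21 ± 0.27 on the log2 scale (SE, adjusted p = 0.00811, edgeR), and the call held in the same alternatives. LowAhR exceeded Cont by 0.90 ± 0.27 (SE, adjusted p = 0.125, edgeR). LowAhR+AD+BJ exceeded LowAhR+AD by 0.66 ± 0.27 (SE), with an unadjusted p of 0.0244 and an adjusted p of 0.500 (edgeR), and stood below LowAhR by 0.55 (adjusted p = 0.237, edgeR).

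S100a13, which takes part in the nonclassical release of fibroblast growth factor 1 (Fgf1), followed a like course. It measured 58.5, 80.6, 71.3 and 105.1 CPM in Cont, 122, 146, 109 and 141 CPM in LowAhR, 53.3, 59.7, 83.7 and 91.2 CPM in LowAhR+AD, and 116, 94.1, 96.7 and 91.8 CPM in LowAhR+AD+BJ. LowAhR lay wholly above Cont and LowAhR+AD, and LowAhR+AD+BJ lay just above LowAhR+AD, with the nearest libraries at 91.8 and 91.2 CPM. Its level fell by 0.84 ± 0.22 (log2, SE) in LowAhR+AD against LowAhR (adjusted p = 0.0172, edgeR). That call was lost without LowAhR replicate 2 (adjusted p = 0.0526), without LowAhR+AD replicate 2 (0.0552) and with only the 8 libraries of both groups (0.0630). LowAhR+AD+BJ exceeded LowAhR+AD by 0.47 ± 0.22 (SE), with an unadjusted p of 0.0436 and an adjusted p of 0.522 (edgeR). Separation in this direction in both S100a4 and S100a13 compares with 2.42% of all genes.

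Markers of several dermal and immune cells were also lower in LowAhR+AD than in LowAhR, where 6.21% of all genes were called lower. Of 6 adipocyte genes 5 were called lower (from 4972–9302 to 223–2597 CPM summed over the list). Of 6 fibroblast genes 2 were called lower, Col1a1 and Col1a2 (from 28036–54106 to 3898–22600 CPM). Of 5 dendritic and Langerhans cell genes 2 were called lower, H2-Ab1 and Cd74 (from 1760–2239 to 378–817 CPM). Of 5 T cell genes 2 were called lower, Cd3g and Cd3e (from 20.03–34.9 to 0–8.78 CPM), and of 4 Schwann cell genes 3 (from 173–219 to 46.7–73.5 CPM). None of 7 macrophage genes was called (1237–1419 against 227–1537 CPM summed). By direction alone, log2 fold changes above 0 were seen in 0 of 6 adipocyte, 1 of 6 fibroblast and 1 of 5 dendritic and Langerhans cell genes. They were also seen in 0 of 5 T cell, 1 of 4 Schwann cell and 0 of 7 macrophage genes (macrophage median -0.50). The lowest LowAhR+AD library was replicate 1 in the adipocyte, fibroblast, T cell and macrophage lists and replicate 2 in the others. Without replicate 1, S100a4 still gave a log2 fold change of -1.02 in LowAhR+AD against LowAhR (adjusted p = 0.0136, edgeR). Some of these lists also ran with S100a4 and S100a13 in the other steps, with no gene of them called. In LowAhR against Cont all 6 adipocyte genes (median log2 fold change 1.26) and all 7 macrophage genes (median 0.55) were above 0. Of the other lists 1 of 6 fibroblast, 2 of 5 T cell, 2 of 4 Schwann cell and 0 of 5 dendritic and Langerhans cell genes were. In LowAhR+AD+BJ against LowAhR+AD all 5 T cell genes (median 2.41), all 7 macrophage genes (median 0.43) and all 5 dendritic and Langerhans cell genes (median 0.66) were above 0. So were 5 of 6 fibroblast (median 0.19), 4 of 6 adipocyte (median 0.28) and 2 of 4 Schwann cell genes. The part of these cells in the values of S100a4 and S100a13 was not tested.

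S100a5, a member known from olfactory neurons, had no count in 14 of the 16 libraries. It had 2 counts in LowAhR replicate 4 and 5 counts in LowAhR+AD+BJ replicate 1. A count of 0 allows up to 3 counts, that is 0.229 to 0.406 CPM depending on the library, so its level was at the limit of this depth.

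Because nearby members went different ways, log2 ratios within a library also changed between groups. These pairs were picked after the values were seen and carry no test, and the ratio is read only for its change. S100a4 and S100a6 lie on the same strand with the untested S100a5 between them. The log2 ratio of S100a4 to S100a6 was -0.23 ± 0.38 in Cont and -0.18 ± 0.49 in LowAhR, and then -2.05 ± 0.58 in LowAhR+AD and -1.58 ± 0.40 in LowAhR+AD+BJ (SD, n = 4). No library with DNCB reached the range of those without. For the head-to-head pair S100a1 and S100a13 the log2 ratio was -0.75 ± 0.67 in Cont, -0.30 ± 0.69 in LowAhR, 1.16 ± 0.69 in LowAhR+AD and 0.96 ± 0.42 in LowAhR+AD+BJ (SD, n = 4). Here LowAhR replicate 4, at 0.71, overlapped with the DNCB groups.

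**Figure D4:**
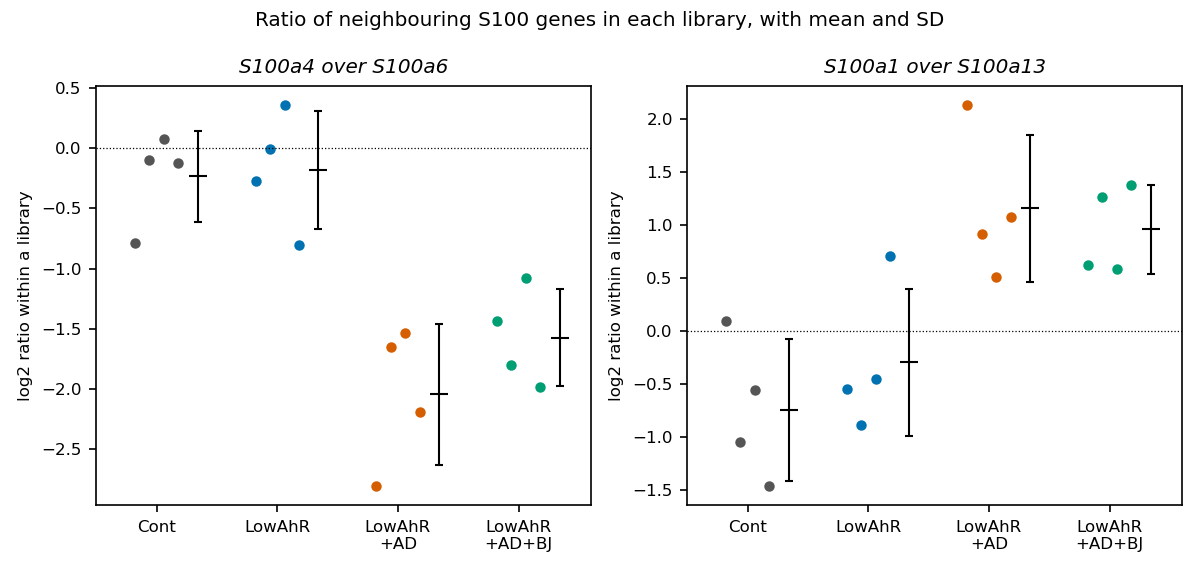
Log2 ratio of the CPM of S100a4 to S100a6 (left) and of S100a1 to S100a13 (right) in each library, with points by group and bars for mean and SD. The S100a4 ratio lay between -0.80 and 0.36 without DNCB and between -2.81 and -1.08 with it.

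Genes for S100 binding partners and receptors were read from lists. Of 12 partners, Myh9, the S100a4 partner that drives actin filaments, rose in LowAhR+AD against LowAhR (log2 fold change 1.22, adjusted p = 0.00217, edgeR). In the same comparison Ppfibp1 fell by 1.63 (adjusted p = 0.00340, edgeR) and Ahnak, a large scaffold protein, fell by 0.93 (adjusted p = 0.00776, edgeR). So 1 of 12 partners was called higher and 2 lower, against 6.42% and 6.21% of all genes. Of the 2 listed partners of S100a4, 1 thus moved with it and the other against it. Against Cont, LowAhR+AD also had higher Anxa2, Anxa6, Cacybp and Padi3, with log2 fold changes of 1.28, 0.88, 0.89 and 6.41, and lower Ppfibp1 and Ahnak, so 7 of 12 partners were called, against 21.8% of all genes in either direction. Fgf1 was called in no comparison. Of the 4 receptors, Cd36, a scavenger receptor that is also abundant in fat cells, fell by 1.71 in LowAhR+AD against LowAhR (adjusted p = 0.00100, edgeR), beside the fall of the adipocyte genes, whose part was not tested. Ager, Tlr4 and Bsg were not called in any comparison.

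Beside the 9 members, 5 other S100 genes were tested. S100a8 and S100a9 rose in LowAhR+AD against LowAhR with log2 fold changes of 4.29 and 4.49, well above the 1.36 of S100a16, whereas S100a10 (-0.17), S100b and S100z were not called in any comparison. For the remaining members the genes of closest pattern over the 16 libraries were the stress keratin Krt6a for S100a16 (r = 0.974), Tcp1 for S100a14 (r = 0.979), Psmb6 for S100a11 (r = 0.958), Sh3bgrl for S100a4 (r = 0.953), Ly96 for S100a13 (r = 0.915) and Spink12 for both S100a6 (r = 0.961) and S100a1 (r = 0.940).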

How the data were processed

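Dorsal skin RNA of 16 mice (4 groups of 4, 1 library each) was made into 3′ mRNA-seq libraries (QuantSeq) and sequenced as single-end reads. The authors deposited raw counts per gene symbol, 1 table per library. The submitters' processing notes name Bowtie2, bedtools and the build mm10. The gene annotation and any use of strand in counting are not given in the sources used here. Reads come from transcript ends, so counts are tags per transcript and depend little on length, and overlapping genes can share them.

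Groups were taken from the sample labels. No pair of libraries of a group agreed within sampling noise (chi-square per degree of freedom 16.4 to 285 over 24 pairs). Counts were filtered with filterByExpr (minimum count 10, total 15), scaled by TMM and fitted over all 16 libraries with group as the only term by the quasi-likelihood test of edgeR 4.0.16 in R 4.3.3, with Benjamini-Hochberg adjustment over 14854 genes and a threshold of 0.05. Log2 CPM used a prior count of 2. On simulated counts the test recovered 81.3% of genes changed 16-fold, 40.6% of those changed 4-fold and 5.97% of those changed 2-fold. The simulation changed 64, 64 and 67 genes by these amounts among 14401, far fewer than the 1876 of 14854 called in LowAhR+AD against LowAhR. The adjustment is stricter when fewer genes change, so recovery in the real data may differ from these shares. Alternatives were other scalings, filters and sample sets, a replicate block, DESeq2 1.42.0, limma 3.58.1 (voom) and leaving out each library.

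All 10 members are named. Partners, receptors, other S100 genes and markers are named as members of their lists, and the genes of closest pattern by the highest Pearson correlation. The members and lists were chosen with earlier results of these data known. Motifs were searched in the 250 bases before each RefSeq start.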

Additional observations from a re-analysis of the deposited data

Results flagged for a closer look

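Each of the 9 tested genes was checked in each group for a library far from the other 3 (Dixon's test of the gap over the range), which gave 6 of 36 groups, where chance flags about 1 in 20. S100a1 was high in LowAhR replicate 4 (230.3 CPM), the library in which S100a3 and the hair genes were also highest of that group. S100a3 was low in LowAhR+AD+BJ replicate 1 (194 CPM). S100a4 was low in Cont replicate 1 (357 CPM) and in LowAhR+AD replicate 1 (265 CPM), the latter being the library with many undetected genes. S100a11 was low in Cont replicate 2 (385 CPM). S100a7a was counted in only 1 Cont library, replicate 3 (0.370 CPM, 3 counts), which sets it apart by construction.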

How the results depend on the processing

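Of 1114 values computed under alternatives, 1063 kept their direction and side of the threshold. With the direction kept, 15 lost a call and 26 gained one, whatever the size of the change, and 10 reversed direction. The number of members called in LowAhR against Cont was 0, and 5 with DESeq2, 1 with only the 8 libraries of both groups, and 0 to 5 when 1 library was left out. In LowAhR+AD against LowAhR it went from 3 to 5 with DESeq2, 6 with limma voom, 2 with only the 8 libraries, and 2 to 5 when 1 library was left out. In LowAhR+AD+BJ against LowAhR it ranged from 1 to 4 when 1 library was left out. The cause of these moves was not tested.

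Over all genes the calls, 0 in the first of these comparisons, were 491 with DESeq2, 45 with at least 10 counts in every library, 250 with only the 8 libraries and 0 to 475 when 1 library was left out. In LowAhR+AD against LowAhR they were 1876, but 2673 with DESeq2, 2092 with limma voom, 765 with only the 8 libraries and 1128 to 2015 when 1 library was left out. In LowAhR+AD+BJ against LowAhR they were 1005, but 1676 with DESeq2 and 414 to 1716 when 1 library was left out. Between the DNCB groups they were 0, with 17 in DESeq2 and at most 1 when 1 library was left out.

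S100a16 in LowAhR+AD+BJ against LowAhR+AD (-0.0045) became 0.0145 with upper-quartile factors and 0.00327 with limma voom, and ranged from -0.16 to 0.16 when 1 library was left out. Other reversed values came from leaving out 1 library: S100a7a in LowAhR+AD against LowAhR ranged from -0.10 to 1.01, S100a13 in LowAhR+AD against Cont from -0.27 to 0.041, and S100a11 between the DNCB groups from -0.054 to 0.48.

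The labels do not say that a replicate number pairs mice. Deviations from the group means of same-numbered libraries of different groups correlated at -0.055 to 0.167 (median -0.0074). For libraries of other numbers and groups it was -0.146 to 0.140 (median -0.0094). Of the 16 libraries, 7 correlated best with one of their own number. A replicate block left the number of members called as it was in all 5 comparisons, and gave 0.0181 for S100a16 between the DNCB groups. Depth limits S100a5, and S100a7a in Cont.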
